A study of Rattus norvegicus with 9 samples.

Results

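Genes that mark Schwann cells and other glia were followed in the rat adrenal medulla under immobilization stress. The 5 genes, S100b, Mbp, Sox10, Pmp22 and Gfap, were chosen with earlier results of these data known. Every probe set annotated to exactly 1 of them was kept. The members are 5 of the 14217 genes that have such a probe set. They held 8 of the 31099 probe sets in the table: 3 for Mbp, 2 for Pmp22 and 1 each for S100b, Sox10 and Gfap. A probe set is a group of short oligonucleotides on an Affymetrix array whose brightness is summarised as 1 intensity for a transcript. All 8 were bright enough to be tested, in an analysis that left out the dimmest 30% of probe sets with 1 symbol.

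The study measured total RNA of the adrenal medulla from adult rats of 280 to 320 g on 9 arrays, 3 per group. Control rats were not stressed, 1XIMO rats were immobilized once for 2 h, and 6XIMO rats were immobilized for 2 h a day on 6 days, with tissue taken after the last session. Immobilization is a standard stressor in rats, and it drives catecholamine release from the medulla. The labels give neither strain nor sex, and they do not say whether each array holds a separate animal, so p-values measure the spread between these arrays, which may be technical. Some label fields mention a mouse or the brain, but the organism is entered as Rattus norvegicus and the design text speaks of rats, which was followed here.

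Glia in the adrenal medulla are of neural crest origin. Schwann cells ensheathe the preganglionic axons that enter the gland, and sustentacular cells, a satellite type of glia, wrap the clusters of catecholamine-making chromaffin cells. S100b encodes a calcium-binding protein that is the usual histological marker of both. Sox10 is a transcription factor of the neural crest that the glial lineage keeps. Gfap is an intermediate filament of astrocytes that is also made by non-myelinating Schwann cells and some sustentacular cells. Mbp and Pmp22 encode proteins of myelin, and Pmp22 is also made by fibroblasts and epithelia. In RNA of a whole tissue, fewer cells of a type and less RNA per cell cannot be told apart.

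The 6XIMO arrays stood apart from the other arrays in measures unrelated to these genes. The ratio of the 3' to the 5' beta-actin control, which rises with shortened or degraded RNA, was 231, 6.11 and 8.87 in 6XIMO, against 1.57 to 1.99 in 1XIMO and 1.45 to 2.15 in Control. For the GAPDH control it was 5.02, 1.79 and 1.87 in 6XIMO, against 1.13 to 1.32 in 1XIMO and 1.10 to 1.41 in Control. The hexokinase ratio was not raised throughout. It was 0.197, 2.81 and 4.35 in 6XIMO, against 1.76 to 3.37 in 1XIMO and 1.72 to 4.18 in Control. Spiked-in control transcripts averaged 17.52, 14.04 and 14.41 on the log2 scale in 6XIMO, against 11.96 to 13.46 in 1XIMO and 12.04 to 13.08 in Control. Over all probe sets, Pearson correlations of 6XIMO replicate 1 with the remaining arrays were 0.607 to 0.698, against 0.859 to 0.974 among those 8, as a description. The main results in 6XIMO are therefore also given without 6XIMO replicate 1. The part of RNA quality in the 6XIMO values was not tested.

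After 1 session none of the 8 glial probe sets passed the test, and after 6 sessions S100b and 1 of the 2 Pmp22 probe sets were lower than in Control. The test was limma's moderated test on log2(intensity + 16) in a fit of all 9 arrays, with Benjamini-Hochberg adjustment over 14579 probe sets and a threshold of 0.05. Of all probe sets tested, 7.98% passed in 1XIMO against Control, 24.1% in 6XIMO against Control (15.3% lower and 8.81% higher) and 10.3% in 6XIMO against 1XIMO (5.62% lower). At an unadjusted p below 0.05, 0 of the 8 passed in 1XIMO against Control and 4 in 6XIMO against Control, beside 20.8% and 38.4% of all probe sets. The count of 2 in 8 after 6 sessions is near the background share. Without 6XIMO replicate 1, 1 of the 8 passed in 1XIMO against Control, 4 in 6XIMO against Control (2 higher and 2 lower) and 3 in 6XIMO against 1XIMO, where 26.6%, 47.2% and 31.2% of all probe sets passed. The median log2 fold change of the 8 probe sets was 0.10 in 1XIMO against Control and -0.09 in 6XIMO against Control, beside -0.12 and -0.28 for all probe sets. Centring each array on its median without 6XIMO replicate 1 moved that median of all probe sets in 6XIMO against Control to 0.22, so changes of the members relative to -0.28 are also given.

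**Figure D1:**
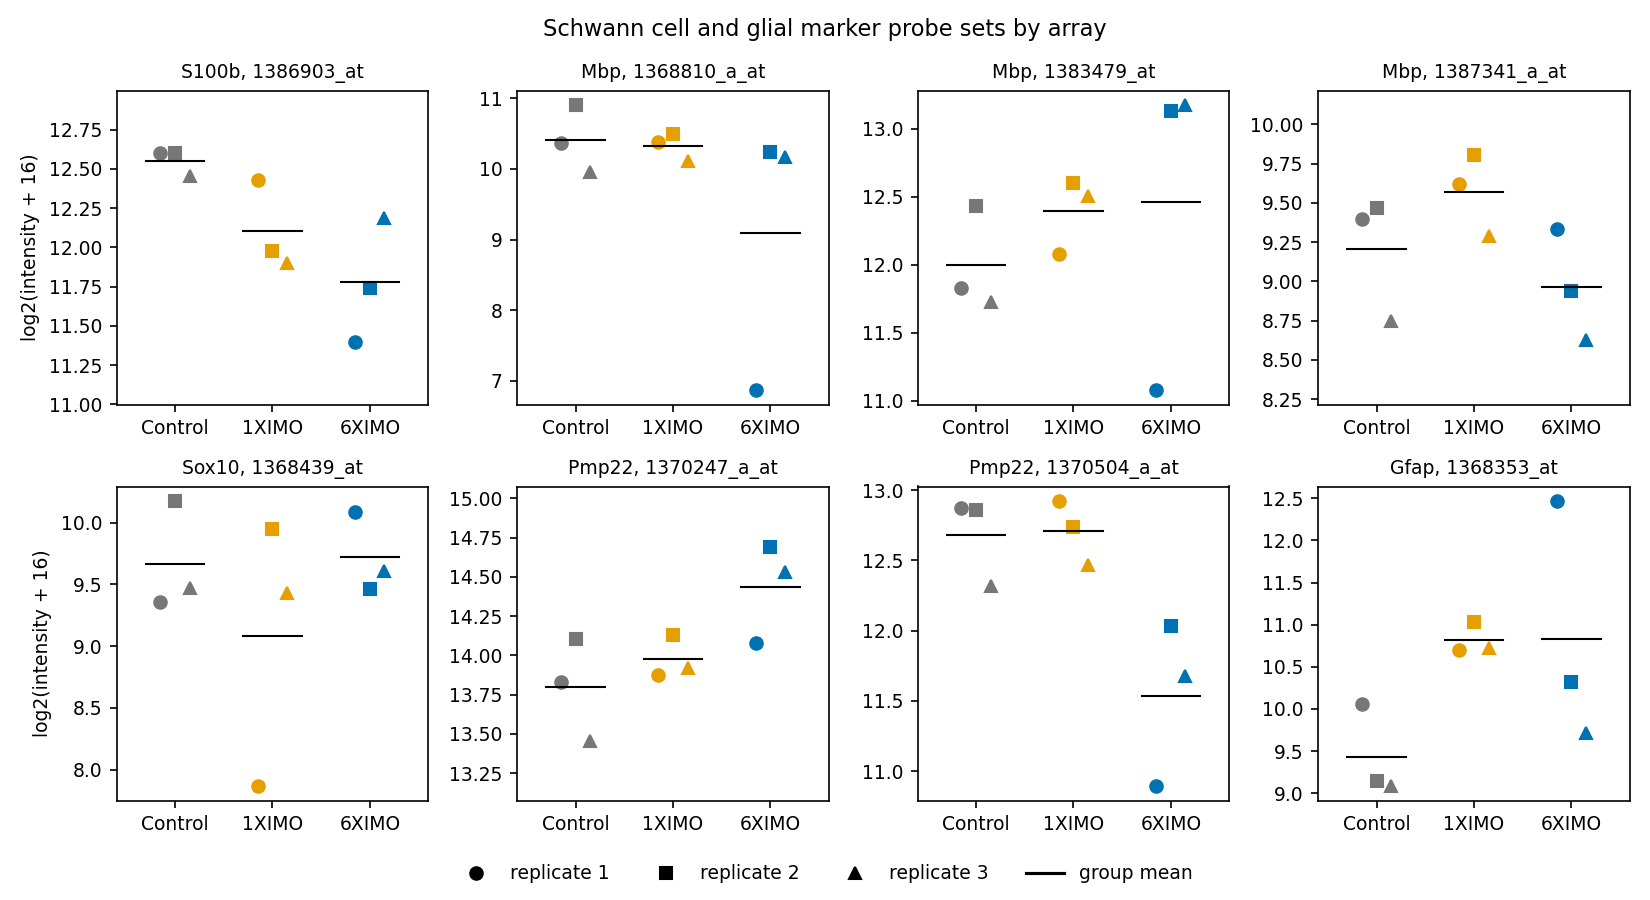
Intensity of the 8 probe sets of the 5 glial marker genes on each array, as log2(intensity + 16), with 1 panel per probe set and its own axis range, a symbol for each replicate number and a line for the group mean, in the order Control, 1XIMO and 6XIMO. S100b is below every Control array in both stressed groups, Gfap is above every Control array in 1XIMO, and the 2 Pmp22 probe sets move apart in 6XIMO.

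S100b, the marker shared by Schwann and sustentacular cells, was lower after 6 sessions than in Control. Its probe set 1386903_at had intensities of 6186, 6187 and 5598 in Control, 5501, 4014 and 3812 in 1XIMO, and 2683, 3410 and 4652 in 6XIMO. Every stressed array lay below every Control array, although 1XIMO replicate 1 was close to the lowest Control array. On the log2 scale S100b averaged 11.78 ± 0.40 in 6XIMO and 12.55 ± 0.08 in Control (SD, n = 3 each), a log2 fold change of -0.77 ± 0.24 (SE; limma adjusted p = 0.0436), or 1.71-fold lower. Relative to the median of all probe sets the change was -0.50. Without 6XIMO replicate 1 the log2 fold change was -0.59 (adjusted p = 0.0347).

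After 1 session S100b averaged 12.10 ± 0.29 in 1XIMO and 12.55 ± 0.08 in Control (SD, n = 3 each), which did not pass (log2 fold change -0.45 ± 0.24, limma adjusted p = 0.353). Groups without overlap were common among all probe sets, at 40.8% in 1XIMO against Control and 42.4% in 6XIMO against Control. The 6XIMO and 1XIMO arrays overlapped for S100b, and their difference of -0.33 on the log2 scale did not pass (limma adjusted p = 0.398). The call in 6XIMO against Control was made in 8 of 21 alternative settings, with a log2 fold change from -0.98 to -0.10 and an adjusted p between 0.0248 and 0.700. Without 6XIMO replicate 1 it was -0.48 with quantile normalization (limma adjusted p = 0.127) and -0.10 with median centring (limma adjusted p = 0.700). Leaving out any 1 Control array ended it (limma adjusted p = 0.101 to 0.121), as did leaving out 1XIMO replicate 2 or 3 or 6XIMO replicate 2 (0.0660 to 0.0862). Without 1 Control array the calls over all 14579 probe sets also fell, from 3514 to between 1598 and 2037.

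Gfap had the largest log2 fold change of the 5 genes in 1XIMO against Control, again without overlap and in the other direction. Its probe set 1368353_at had intensities of 1048.9, 551.3 and 525.7 in Control, 1643, 2083 and 1674 in 1XIMO, and 5662, 1263 and 822.6 in 6XIMO. The 3 arrays of 1XIMO lay close together and above every Control array, whereas 6XIMO ran from inside the Control range to the highest value of the study, on replicate 1. Gfap averaged 10.82 ± 0.19 in 1XIMO and 9.43 ± 0.54 in Control on the log2 scale (SD, n = 3 each), a log2 fold change of 1.39 ± 0.62 (SE; 2.62-fold), which did not pass (limma adjusted p = 0.242). Relative to the median of all probe sets it was 1.51.

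The wide 6XIMO group enters the spread of that fit. Without 6XIMO replicate 1 the Gfap change in 1XIMO against Control kept its size and had a limma adjusted p of 0.00839, where 26.6% of all probe sets passed. In a fit of those 2 groups alone the limma adjusted p was 0.0123. Over the 21 alternative settings the log2 fold change lay between 1.22 and 1.70, and 5 of them made the call (adjusted p = 0.000151 to 0.548). In 6XIMO against Control the Gfap change of 1.41 ± 0.62 did not pass (limma adjusted p = 0.127), and 4 of the 21 alternative settings made the call. Without 6XIMO replicate 1 the change was 0.59 (limma adjusted p = 0.179). With quantile normalization and without that array it was 1.04 and passed (limma adjusted p = 0.0246), where 4912 of 14579 probe sets passed. The size of the Gfap change in 6XIMO thus depended on that array and on the normalization. The 6XIMO and 1XIMO means differed by 0.02 on the log2 scale with that array and by -0.80 without it (limma adjusted p = 0.0973).

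Because S100b and Gfap were the members whose 1XIMO arrays lay apart from Control, in opposite directions, the 250 bases before the start that the RefSeq promoter table (GRCr8) gives each gene are shown, 5' to 3' on the gene's strand. S100b lies on the minus strand at chr20:12381082-12381331 and Gfap on the minus strand at chr10:88361662-88361911. The Gfap window ends where the annotated gene begins, whereas 78 bases of the S100b window lie inside the outermost annotated extent of that gene, which reaches position 12381159.
S100b: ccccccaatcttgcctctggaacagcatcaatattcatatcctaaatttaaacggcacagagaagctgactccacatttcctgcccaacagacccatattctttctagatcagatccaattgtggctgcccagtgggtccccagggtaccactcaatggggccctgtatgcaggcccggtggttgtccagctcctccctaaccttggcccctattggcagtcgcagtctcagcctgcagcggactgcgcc
Gfap: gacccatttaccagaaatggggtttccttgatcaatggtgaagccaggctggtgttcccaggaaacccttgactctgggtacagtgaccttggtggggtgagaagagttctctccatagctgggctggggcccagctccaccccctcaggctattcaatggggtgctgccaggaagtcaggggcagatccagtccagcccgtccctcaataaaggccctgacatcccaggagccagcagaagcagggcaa
The letters of 8 motifs were searched on both strands, and the sequences carry no capitals because none was present in either. They were the SOX core ACAANG, held by 36.94% of all 33469 RefSeq rat promoters of the table, AP-1 TGANTCA (6.34%), the cAMP element TGACGTCA (1.59%) and its core TGACG (18.22%, which overlaps the full element), STAT TTCNNNGAA (7.67%), EGR GCGNGGGCG (4.29%), the TATA box TATAAA (12.93%) and the palindromic glucocorticoid receptor element (0.04%). Shares are for windows of 250 bases, and the result says only that these letters are not in the 2 windows.

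Sox10, the lineage transcription factor, showed no group difference beyond its spread. Its probe set 1368439_at had intensities of 639.8, 1142 and 692.8 in Control, 216.9, 971.1 and 673.4 in 1XIMO, and 1070.5, 691.4 and 766.2 in 6XIMO. All 3 groups overlapped, and 1XIMO replicate 1 was the lowest of the 9 arrays. The log2 fold change was -0.59 ± 0.55 in 1XIMO against Control (limma adjusted p = 0.672) and 0.02 without 1XIMO replicate 1. In 6XIMO against Control it was 0.05 ± 0.55 (limma adjusted p = 0.954).

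Pmp22, a membrane protein of compact peripheral myelin, had 2 probe sets whose changes were of opposite sign after 6 sessions. The brighter one, 1370247_a_at, had 14573, 17579.6 and 11232 in Control, 15038, 17892 and 15458 in 1XIMO, and 17275, 26479 and 23649 in 6XIMO. The other, 1370504_a_at, had 7471, 7406 and 5099 in Control, 7761, 6802 and 5646 in 1XIMO, and 1885, 4169 and 3267 in 6XIMO. After 1 session both stayed within or near the Control range, and after 6 sessions the first was high in 2 of 3 arrays while the second was below every array of the other groups.

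For 1370504_a_at the mean was 11.53 ± 0.58 in 6XIMO and 12.68 ± 0.31 in Control on the log2 scale (SD, n = 3 each), a log2 fold change of -1.15 ± 0.30 (limma adjusted p = 0.0236), 2.22-fold lower. It was -0.83 without 6XIMO replicate 1 (limma adjusted p = 0.0112). Against 1XIMO it was -1.17 ± 0.30 in 6XIMO (limma adjusted p = 0.0398), the sole member called in that comparison; the 2 groups did not overlap, as for 35.4% of all probe sets. The call against Control was made in 14 of 20 alternative settings (adjusted p = 0.00272 to 0.208) and the call against 1XIMO in 8 of 20 (adjusted p = 0.00113 to 0.176). Leaving out Control replicate 1 or 2 ended the call against Control (limma adjusted p = 0.0818 and 0.0841). Of the 9 arrays left out in turn all but 6XIMO replicates 1 and 2 ended the call against 1XIMO (limma adjusted p = 0.0597 to 0.127). In those fits its log2 fold change against 1XIMO stayed between -1.30 and -1.07. Calls against 1XIMO over all 14579 probe sets fell there from 1505 to between 0 (without 1XIMO replicate 3) and 991 (without Control replicate 1).

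For 1370247_a_at the mean was 14.43 ± 0.32 in 6XIMO and 13.80 ± 0.32 in Control on the log2 scale (SD, n = 3 each), a log2 fold change of 0.64 ± 0.24 that did not pass (limma adjusted p = 0.0813). Without 6XIMO replicate 1 it was 0.81 and passed (limma adjusted p = 0.00622, 1.76-fold higher), where 47.2% of all probe sets passed. With quantile normalization and without that array it was 0.36 (limma adjusted p = 0.210). In 1XIMO against Control the 2 probe sets gave 0.18 and 0.03, neither of which passed.

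Mbp, the cytoplasmic protein that compacts the myelin membrane, was measured by 3 probe sets that did not follow each other after 6 sessions. The brightest, 1383479_at, had 3624, 5506 and 3368 in Control, 4299.6, 6209 and 5790.4 in 1XIMO, and 2142, 8962 and 9239.7 in 6XIMO. Replicate 1 of 6XIMO was thus the lowest of all arrays and the other two 6XIMO arrays the highest. The log2 fold change in 6XIMO against Control was 0.47 ± 0.50 with all arrays (limma adjusted p = 0.530) and 1.16 ± 0.23 without 6XIMO replicate 1 (limma adjusted p = 0.00316, 2.23-fold higher).

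Neither of the other Mbp probe sets rose. Intensities of 1368810_a_at were 1300.4, 1906 and 974.6 in Control, 1318, 1429 and 1088 in 1XIMO, and 100.7, 1189.9 and 1140.2 in 6XIMO. Its log2 fold change in 6XIMO against Control was -1.31 ± 0.79 (limma adjusted p = 0.248), set by replicate 1, and -0.20 without it (limma adjusted p = 0.585). Probe set 1387341_a_at had 657.8, 693.0 and 413.1 in Control, 771.5, 879.0 and 608.6 in 1XIMO, and 629.1, 474.0 and 378.7 in 6XIMO. Its groups overlapped, and its log2 fold change was -0.24 ± 0.40 in 6XIMO against Control (limma adjusted p = 0.695). In 1XIMO against Control the 3 Mbp probe sets gave -0.08, 0.40 and 0.37, none of which passed (limma adjusted p = 0.740 to 0.993).

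**Figure D2:**
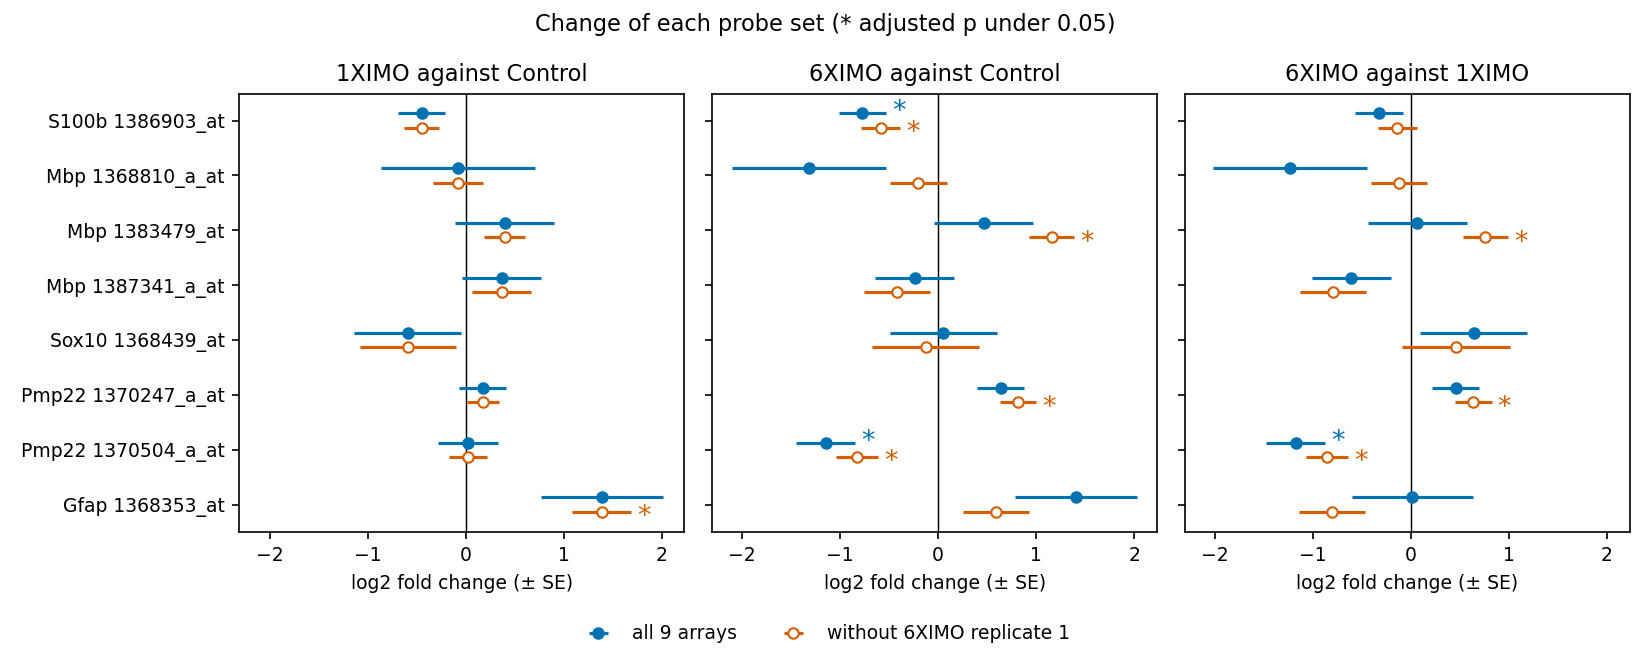
Log2 fold change with its standard error for each of the 8 probe sets in 3 comparisons, 1XIMO against Control, 6XIMO against Control and 6XIMO against 1XIMO, from the fit of all 9 arrays (filled points) and from the fit without 6XIMO replicate 1 (open points). Asterisks mark a limma adjusted p under 0.05; S100b and Pmp22 1370504_a_at are below 0 in 6XIMO against Control in both fits, and Mbp 1383479_at passes without replicate 1.

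The distance between probe sets of 1 gene within an array, chosen for description after the values were seen, hardly depends on a scaling factor applied to that array as a whole. For Pmp22 the log2 difference of 1370247_a_at minus 1370504_a_at was 0.96, 1.25 and 1.14 in Control, 0.95, 1.39 and 1.45 in 1XIMO, and 3.19, 2.66 and 2.85 in 6XIMO. All 3 arrays of 6XIMO, not replicate 1 alone, lay above every other array. The mean was 2.90 ± 0.27 in 6XIMO and 1.11 ± 0.14 in Control (SD, n = 3 each), a difference of 1.78 (exact two-sided permutation p = 0.1, the smallest that 3 against 3 can give; 0.225 after Benjamini-Hochberg adjustment over 9 such tests). For Mbp 1383479_at minus 1368810_a_at the difference was 1.47, 1.52 and 1.77 in Control, 1.69, 2.11 and 2.39 in 1XIMO, and 4.21, 2.90 and 3.00 in 6XIMO. Here 6XIMO and Control did not overlap (exact permutation p = 0.1, adjusted p = 0.225). For Mbp 1383479_at minus 1387341_a_at it was 2.43, 2.96 and 2.98 in Control, 2.45, 2.80 and 3.22 in 1XIMO, and 1.74, 4.20 and 4.55 in 6XIMO. That pair overlapped between 6XIMO and Control (exact permutation p = 0.5, adjusted p = 0.5625), with 6XIMO replicate 1 the lowest array.

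Probe sets of many other genes diverged as well. Among 2937 genes with at least 2 tested probe sets, the log2 fold changes of a gene's probe sets spanned a median of 0.91 in 6XIMO against Control and 0.28 in 1XIMO against Control, and 17.6% of these genes spanned at least as much as Pmp22 in 6XIMO against Control. Probe sets of opposite sign occurred in 43.3% of them. The 3' to 5' ratios of the actin and GAPDH controls were higher on the same 3 arrays, whereas the hexokinase ratio was not higher on all 3. The part of these ratios in the divergence was not tested. Names ending in _a_at denote probe sets that match several transcripts of a gene, and where each probe set lies along its transcript was not analysed here, so changes of transcript form and of RNA length cannot be told apart.

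**Figure D3:**
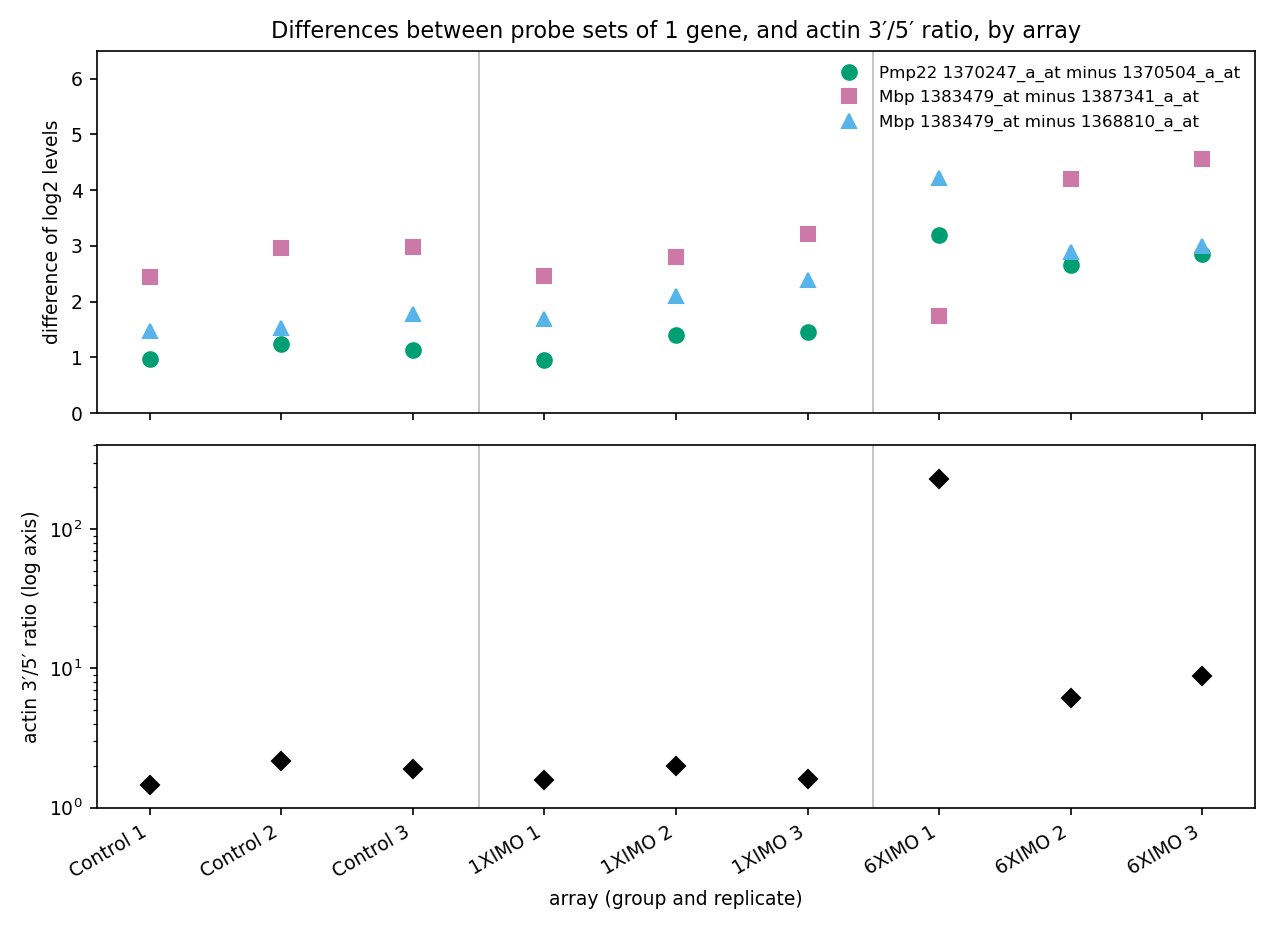
Upper panel: difference of log2(intensity + 16) between 2 probe sets of the same gene on each array, for 1 pair of Pmp22 and 2 pairs of Mbp, in the order Control, 1XIMO and 6XIMO. Lower panel: 3' to 5' ratio of the beta-actin control on the same arrays, on a log axis. The Pmp22 difference is between 0.95 and 1.45 on the Control and 1XIMO arrays and between 2.66 and 3.19 on the 6XIMO arrays.

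Other genes of glia were taken from 4 lists, of myelin proteins and lipids, glial transcription factors, axon-glia signals and adhesion, and astrocyte and sustentacular-like glia. Of their 49 genes, 42 had a probe set with a single symbol and 23 were bright enough to be tested. After 1 session 0 of the 23 passed limma's test (5 at an unadjusted p below 0.05, beside 20.8% of all probe sets), and their median log2 fold change was 0.01, beside -0.12 for all probe sets. After 6 sessions 3 rose and 2 fell relative to Control, which is 21.7% of them beside 24.1% of all probe sets, and the median was 0.06 beside -0.28. Against 1XIMO, 1 rose and 2 fell in 6XIMO, with a median of -0.20 beside -0.14. With 6XIMO replicate 1 left out, 24 genes were tested, and in 6XIMO against Control 3 rose and 5 fell, which is 33.3% beside 47.2% of all probe sets, with a median of -0.18 beside -0.27. In 1XIMO against Control 3 then rose (Egr2, Nrg1 and Nes) and 1 fell (Dag1), which is 16.7% beside 26.6% of all probe sets. In 6XIMO against 1XIMO 3 rose and 4 fell, which is 29.2% beside 31.2%.

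Glul, the glutamine synthetase of glia that other tissues also make, fell after 6 sessions. It had 20594, 15701 and 20163.5 in Control, 14951, 12442 and 14676 in 1XIMO, and 8586, 8156 and 7359.5 in 6XIMO. No 2 groups overlapped, and the log2 fold change was -1.22 ± 0.19 in 6XIMO against Control (limma adjusted p = 0.00278) and -0.80 in 6XIMO against 1XIMO (limma adjusted p = 0.0302). Adgrg6, the adhesion receptor that Schwann cells need to start myelination, had 1851, 1623 and 881.5 in Control, 1792, 1682 and 1577 in 1XIMO, and 844.8, 485.3 and 637.9 in 6XIMO. It fell by 1.09 in 6XIMO against Control (limma adjusted p = 0.0466) and by 1.37 in 6XIMO against 1XIMO (limma adjusted p = 0.0373), on the log2 scale.

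Egr2, the immediate early gene that is also the master regulator of myelination, had 416.9, 466.1 and 401.1 in Control, 1135, 1207 and 1334 in 1XIMO, and 2185, 1024 and 759.4 in 6XIMO. All stressed arrays exceeded all Control arrays, and the log2 fold change was 1.45 ± 0.40 in 6XIMO against Control (limma adjusted p = 0.0281) and 1.48 in 1XIMO against Control, which just missed the threshold (limma adjusted p = 0.0534; 0.00161 without 6XIMO replicate 1). Egr2 is not specific to glia, and other cells induce it on stimulation. Vim, an intermediate filament of glia and of most mesenchymal cells, rose by 0.86 on the log2 scale in 6XIMO against Control (limma adjusted p = 0.0190). Apoe, an apolipoprotein of glia, macrophages and adrenal cortex, rose by 1.26 in 6XIMO against Control (limma adjusted p = 0.0337), but its change was -0.26 with quantile normalization and without 6XIMO replicate 1. In that setting Adgrg6 was at -0.72 and Vim at 0.42, neither of which passed (limma adjusted p = 0.0839 and 0.116), while Glul and Egr2 passed. Without that array and with the scaling as deposited, all 5 passed, with log2 fold changes in 6XIMO against Control of -1.27 for Glul, -1.29 for Adgrg6, 1.02 for Egr2, 0.93 for Vim and 1.20 for Apoe. In that fit 3 more genes of the lists fell in 6XIMO against Control, named here after their values were seen. They were Fa2h, an enzyme of myelin lipids, at -1.61 (limma adjusted p = 0.00861), L1cam, an adhesion molecule of axons and Schwann cells, at -1.002 (limma adjusted p = 0.0139), and Dag1, a laminin receptor of Schwann cells, at -0.51 (limma adjusted p = 0.00638). With all arrays Fa2h, highest on 6XIMO replicate 1, was at -0.40, L1cam at -0.88 and Dag1 at -0.94 (limma adjusted p = 0.767, 0.0519 and 0.0569). With quantile normalization and without that array Dag1 passed (-0.62, limma adjusted p = 0.00528). Fa2h at -0.98 and L1cam at -0.53 did not pass in that setting (limma adjusted p = 0.112 and 0.167).

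Some other Schwann cell genes were dim or lacked a usable probe set, although 12 of the 14 axon-glia genes with a probe set were bright enough to be tested. Cdh19, a cadherin of Schwann cell precursors, had no probe set with a single symbol in the annotation used here. Erbb3, the neuregulin receptor of Schwann cells, was under the filter on dim probe sets in the fit of all arrays, with 934.9, 452.9 and 590.3 in Control, 805.0, 471.5 and 362.1 in 1XIMO, and 172.5, 197.1 and 457.4 in 6XIMO. It was tested without 6XIMO replicate 1, where its log2 fold change of -1.03 in 6XIMO against Control did not pass (limma adjusted p = 0.114). Fabp7, a fatty acid-binding protein of immature glia, was dimmer still, with 142, 165 and 43.4 in Control, 124, 86.3 and 105 in 1XIMO, and 304, 18.0 and 279 in 6XIMO. No array listed any gene of the 4 lists at 0.

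**Figure D4:**
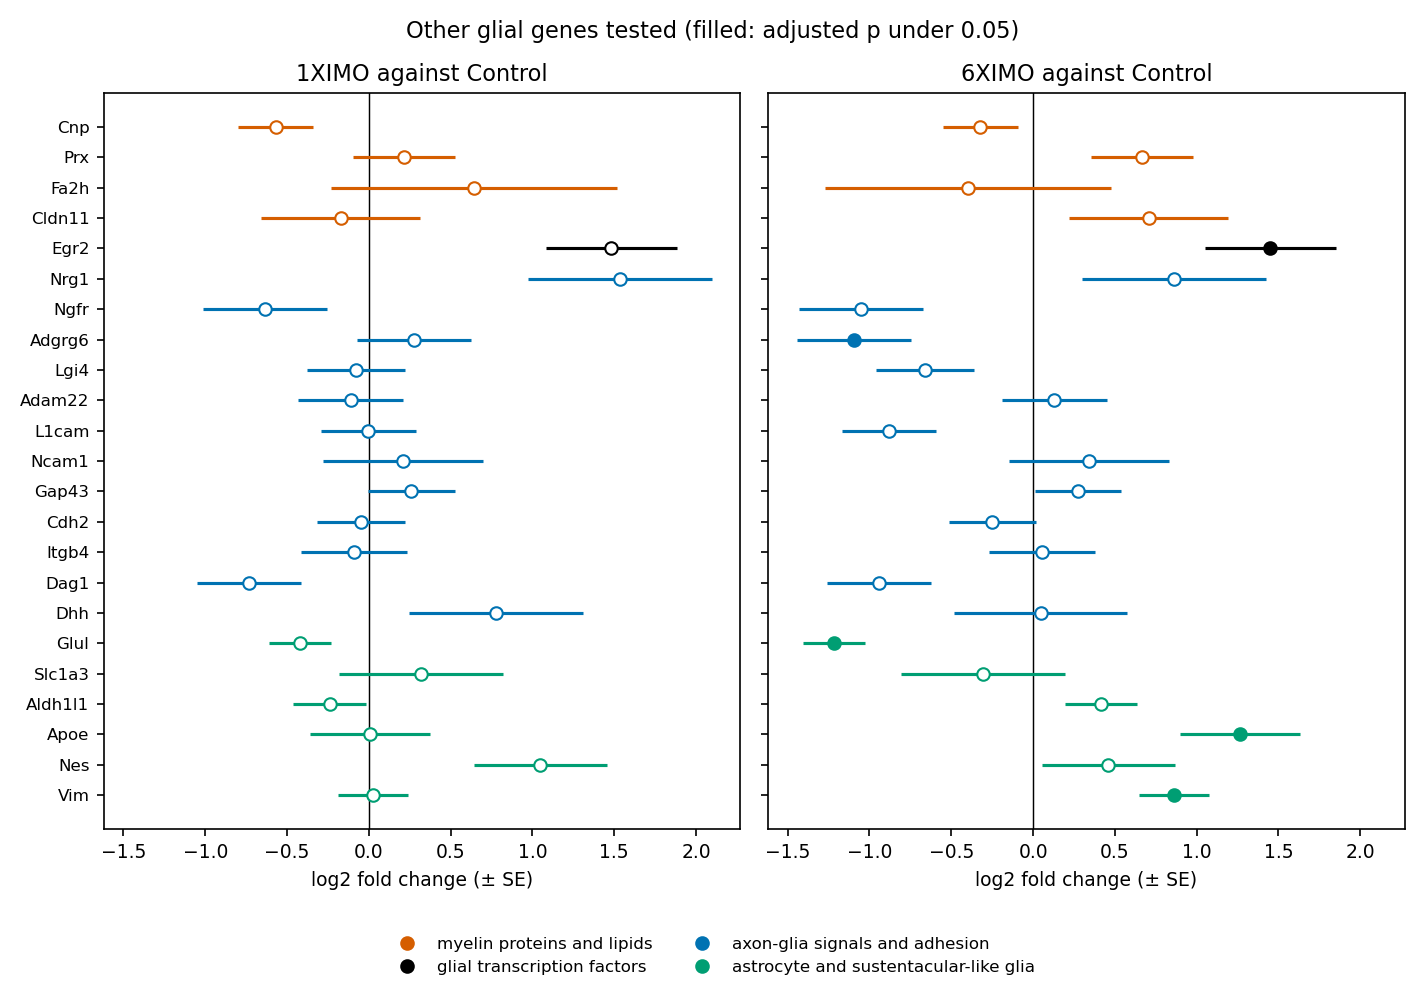
Log2 fold change of each tested gene of the 4 glial lists with its standard error, in 1XIMO against Control (left) and 6XIMO against Control (right), 1 point per gene coloured by list, with genes that passed the limma test filled. In 6XIMO against Control, Egr2, Apoe and Vim are above 0 and Glul and Adgrg6 below it among the genes that passed.

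Among 11 tested relatives of the members' protein families, Emp2, an epithelial membrane protein of the Pmp22 family, rose in 6XIMO. It had 1259, 1079.6 and 829.2 in Control, 689.9, 1210.7 and 1164 in 1XIMO, and 3827, 4443 and 4037 in 6XIMO. The 3 arrays of 6XIMO lay close together, far above the rest, and the log2 fold change was 1.96 ± 0.29 in 6XIMO against Control (limma adjusted p = 0.00213). S100a6, a calcium-binding relative of S100b, had 13933, 14929 and 11407 in Control, 15506, 22994 and 20639 in 1XIMO, and 7297, 12072 and 11616 in 6XIMO. It fell by 0.95 on the log2 scale in 6XIMO against 1XIMO (limma adjusted p = 0.0455) and did not pass against Control (log2 fold change -0.40, limma adjusted p = 0.274). Vim, named above, was the other relative that rose in 6XIMO, so 2 of the 11 passed against Control, where 24.1% of all probe sets passed. In the fit without 6XIMO replicate 1, 4 relatives rose in 6XIMO against Control (Emp2, S100a10, Vim and Emp3) and 1 fell (S100a4), where 47.2% of all probe sets passed. These counts are near or below the background share.

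Markers of other cells moved in the same 6XIMO arrays. Of 9 adrenal cortex markers tested, 7 rose in 6XIMO against Control, with a median log2 fold change of 1.89, and their summed intensity ran from 1078291 to 2009163 in 6XIMO, 323118 to 761704 in 1XIMO and 342404 to 493876 in Control. Of 9 chromaffin markers, which define the medulla, 4 rose, with a median of 1.29, and their summed intensity ran from 967002 to 2376249 in 6XIMO, 271274 to 529792 in 1XIMO and 289347 to 442926 in Control. With quantile normalization and without 6XIMO replicate 1 these medians were 0.08 for cortex and 0.22 for chromaffin cells. Of 8 markers of neurons and axons, and of the 1 adipocyte marker tested, none passed limma's test (1 at an unadjusted p below 0.05, Nefm), with medians of 0.11 and 0.19. In 6XIMO against Control 1 of 7 fibroblast and matrix markers rose (Pdgfra), 1 of 6 endothelial markers fell (Kdr) and 1 of 6 leukocyte markers fell (Csf1r), and none of these lists held a gene at 0 on any array. These counts grew without 6XIMO replicate 1, where 47.2% of all probe sets passed, beside 24.1% with all arrays. Fibroblasts and matrix then had 3 higher (Col1a2, Dcn and Pdgfra) and 1 lower (Fn1), and their median moved to 0.46 (-0.14 with all arrays). Endothelium had 2 higher and 1 lower, leukocytes 1 higher and 2 lower, and neurons and axons 1 higher (Stmn2). Cortex kept its count of 7 higher in that fit, and chromaffin markers had 5 higher and 1 lower. The part of a changed tissue makeup in the glial values was not tested.

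By the root mean square difference of log2 profiles centred on their own means, over the 8 arrays without 6XIMO replicate 1 and among 10633 other genes, the profiles nearest to S100b were those of Mad2l1 (0.067) and Aqp12a (0.101). Nearest to Gfap were Sv2c (0.165) and Plxna2 (0.173), to Sox10 Eya2 (0.207) and Gpt (0.209), to Pmp22 1370247_a_at Tspan13 (0.077) and Gprasp2 (0.085), and to Mbp 1383479_at Atp9a (0.077) and Cartpt (0.116). None of the 5 members was among the nearest 2 of another. With all 9 arrays the differences were larger, for example 0.646 for S100b and Mad2l1 and 1.45 for Gfap and Sv2c. Nearest profiles among so many genes over 8 arrays are a description.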

How the data were processed

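Values of the deposited table are linear intensities, 1 for each probe set on each array. Per the labels' protocols, labelling was performed by the array manufacturer, and the series' design text names the GeneTraffic program for analysis. How probes were summarised and what background step and scaling target were used is not given in the sources used here. The trimmed mean of each array, leaving out 2% on each side, lay between 2500.6 and 2501, so the deposited intensities had been scaled per array, while the medians ran from 592.6 to 1583. Symbols came from the platform annotation: 20826 probe sets had 1 symbol, 436 several and 9780 none, and 57 array controls were left out. All 5 member symbols matched RefSeq (GRCr8).

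From these values log2(intensity + 16) was computed, so fold changes of dim probe sets are understated. The dimmest 30% by mean over all arrays were left out, and limma 3.58.1 in R 4.3.3 (lmFit, eBayes with a trend) was fitted to all 9 arrays with 1 mean per group and 6 residual degrees of freedom, with no covariates, after a test on simulated data. The number of arrays limits the precision, and detection calls were not used. List genes are represented by their brightest probe set. Members and lists were chosen with earlier results of these data known. The text names all member probe sets, up to 4 genes per list past the threshold with the smallest adjusted p, Cdh19, Erbb3 and Fabp7 whatever their values (other genes of that rule are not reported here), and the 2 nearest profiles of each member gene. For the lists of other cell types counts are given, and the genes named there were named after their values were seen.

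Replicate numbers were checked for pairing by the correlation of deviations from group means. All 3 same-numbered pairs of 1XIMO and Control were over 0.1 (0.233 to 0.606), so these numbers were taken to pair those groups. Yet 1XIMO replicate 3 correlated more with Control replicate 2 (0.383) than with Control replicate 3 (0.233), so the pairing is not certain. Correlations over 0.1 did not hold throughout for 6XIMO with Control (0.0157 to 0.148) or with 1XIMO (0.0597 to 0.109). The main fit did not use the numbers.

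Alternatives changed the filter, the pseudocount (1 or 64), the normalization, the arrays, the groups in the fit, the unit of test, a replicate block and array weights.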

Additional observations from a re-analysis of the deposited data

Results flagged for a closer look

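These results drew attention because the responses to 1 and to 6 sessions differed, by the test of 6XIMO against 1XIMO in the fit of all arrays (limma, adjusted over all probe sets). That test was passed by 10.3% of all probe sets. No probe set passed it when only these 2 groups were fitted or without 1XIMO replicate 3, and 14 passed without 1XIMO replicate 2. Pmp22 1370504_a_at differed by -1.17 on the log2 scale (adjusted p = 0.0398), lower in 3 of 3 arrays of 6XIMO than in any of 1XIMO. Among list genes, Adgrg6 differed by -1.37 (adjusted p = 0.0373), Glul by -0.80 (adjusted p = 0.0302) and S100a6 by -0.95 (adjusted p = 0.0455). Vim differed by 0.84 (adjusted p = 0.0395) and Emp2 by 2.03 (adjusted p = 0.0103). With quantile normalization and without 6XIMO replicate 1, Vim was at 0.55 and did not pass (limma adjusted p = 0.0668), while the others passed. Each rests on 3 arrays per group, and the 6XIMO arrays also had the highest 3' to 5' ratios of the actin and GAPDH controls. The hexokinase ratio was not highest on all of them. The part of these ratios was not tested.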

How the results depend on the processing

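Of the 8 member probe sets, 0 passed in 1XIMO against Control, 2 in 6XIMO against Control and 1 in 6XIMO against 1XIMO. Leaving out 1 array at a time gave 0 to 1, 0 to 4 and 0 to 3 in that order. The highest each time was without 6XIMO replicate 1, where 26.6%, 47.2% and 31.2% of all probe sets passed. In the same order the counts were 3, 4 and 5 with array weights (whose fit stopped before convergence), 0, 0 and 0 with quantile normalization, 0, 1 and 0 with median centring, 1, 3 and 1 with quantile normalization without 6XIMO replicate 1, 1, 3 and 2 with median centring without it, 0, 1 and 1 with no filter, 1, 0 and 0 with only the 2 groups compared, and 0, 1 and 0 with 1 probe set per gene. Other filters and pseudocounts left the counts as they were, although only 5 of the 8 were tested with the dimmest 50% left out. Over all 14579 probe sets the main fit called 1164, 3514 and 1505 in that order. Array weights called 5908, 8266 and 6845, quantile normalization 981, 2564 and 759, and median centring 591, 2000 and 746. Without 6XIMO replicate 1 the latter 2 called 3821, 4912 and 2869, and 3039, 6308 and 4754. Only the 2 groups gave 3554, 1886 and 0. No filter gave 996, 3291 and 1215 of 20826, and 1 probe set per gene 1082, 2751 and 1152 of 10634. The fit with the replicate number as a block gave 0, 1 and 0, beside 1043, 3608 and 1375 of all 14579 probe sets. In 1XIMO against Control, where the numbers were taken to pair the arrays, it changed no member's call and no count of the 4 glial lists. In the 6XIMO comparisons, where the numbers were not taken to pair the arrays, S100b against Control had a limma adjusted p of 0.0681 and Pmp22 1370504_a_at against 1XIMO one of 0.0548. Over all groups 7 of 9 arrays correlated best with their own number.

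Of 486 log2 fold changes of single members under the alternatives, 397 kept their sign and side of the threshold, 25 passed newly, 31 lost the call, and 33 changed sign, none of which had passed with all arrays. With median centring without 6XIMO replicate 1, S100b in 6XIMO against 1XIMO was 0.17, and with array weights 0.0895. Mbp 1368810_a_at in 1XIMO against Control was 0.10 with quantile normalization and with median centring, with or without 6XIMO replicate 1, and 0.083 with array weights. Without that array, quantile normalization and median centring gave it 0.27 and 0.28 in 6XIMO against Control and 0.17 and 0.18 in 6XIMO against 1XIMO, gave Mbp 1387341_a_at 0.15 and 0.0615 in 6XIMO against Control, and gave Gfap -0.52 and -0.50 in 6XIMO against 1XIMO. Mbp 1383479_at in 6XIMO against 1XIMO was -0.0537 with quantile normalization. With array weights Sox10 was -0.0674 in 6XIMO against Control and -0.0368 in 6XIMO against 1XIMO, and Gfap -1.02 in 6XIMO against 1XIMO, the 1 changed sign that passed (limma adjusted p = 0.00639). Leaving out 1 array at a time gave ranges across 0 for Mbp 1368810_a_at (-0.31 to 0.17) in 1XIMO against Control, Mbp 1383479_at (-0.29 to 0.76) in 6XIMO against 1XIMO, Sox10 in 1XIMO against Control (-1.02 to 0.0203) and 6XIMO against Control (-0.13 to 0.31), Pmp22 1370504_a_at (-0.15 to 0.15) in 1XIMO against Control and Gfap (-0.80 to 0.58) in 6XIMO against 1XIMO. The causes were not tested, beyond fewer arrays or genes where the alternative leaves them out.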
